A study of Mus musculus with 6 samples.

Results

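The hypoxia-inducible factor (HIF) pathway was examined in left ventricular RNA of adult mice that had been exposed to caffeine in utero. Its members were 10 genes taken by symbol from the 43629 Ensembl genes of the count files, namely the alpha subunits Hif1a, Epas1 and Hif3a, their partner Arnt, the oxygen sensors Egln1 and Egln3, the ubiquitin ligase subunit Vhl, and the targets Vegfa, Adm and Bnip3. All 10 had counts in every heart and passed the filter on low counts. Pregnant mice of the CD-1 strain, an outbred stock, had received either normal saline (vehicle) or 20 mg/kg caffeine in saline by intraperitoneal injection once a day. The exposure ran from embryonic day (E) 6.5 to 9.5, although a field of the labels on RNA extraction ends it at E10.5. The hearts came from male offspring at 1 year of age, 3 per treatment, and no genetic change was carried by either group. Neither the labels nor the sequencing methods say which dam each heart came from, so littermates cannot be told apart from separate litters. Every p-value sets the difference between the treatments against the spread among these 6 hearts and takes no account of litter.

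HIF is a pair of proteins, an oxygen-labile alpha subunit and the stable beta subunit Arnt. When oxygen is sufficient, the Egln prolyl hydroxylases mark the alpha subunit, Vhl recognises the mark, and the alpha subunit is degraded. When oxygen falls, the alpha subunit persists and the pair binds hypoxia response elements near its targets, which include genes for vessel growth, glycolysis and mitophagy and also Egln3 itself. Because alpha subunits are controlled mainly as proteins, counts of their mRNA do not measure the activity of the pathway.

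The promoters of 3 members are shown. Egln1 and Egln3 are sensors whose hearts did not overlap between the treatments, although neither passed the thresholds, and Bnip3 is a well-known target whose hearts overlapped. The difference between these genes was not tested. Each window holds the 250 bases before the RefSeq start on the strand of the gene, GRCm38.p6, 5′ to 3′. Capitals mark the core of the hypoxia response element, searched as ACGTG or GCGTG on either strand. A core read from both strands at the same place forms CACGTG, which is also the E-box read by other factors.
Egln1, chr8:124949255-124949504, minus strand: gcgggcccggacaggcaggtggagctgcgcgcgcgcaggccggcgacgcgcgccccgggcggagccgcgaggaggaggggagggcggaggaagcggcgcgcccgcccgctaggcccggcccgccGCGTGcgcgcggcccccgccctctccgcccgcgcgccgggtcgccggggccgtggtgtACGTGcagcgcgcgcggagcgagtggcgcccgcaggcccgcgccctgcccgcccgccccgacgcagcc
Egln3, chr12:54203875-54204124, minus strand: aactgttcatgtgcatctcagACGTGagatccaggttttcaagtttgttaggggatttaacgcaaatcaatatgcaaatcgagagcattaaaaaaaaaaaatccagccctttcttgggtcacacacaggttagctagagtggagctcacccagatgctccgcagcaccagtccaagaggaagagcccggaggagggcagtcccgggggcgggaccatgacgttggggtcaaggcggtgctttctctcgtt
Bnip3, chr7:138909507-138909756, minus strand: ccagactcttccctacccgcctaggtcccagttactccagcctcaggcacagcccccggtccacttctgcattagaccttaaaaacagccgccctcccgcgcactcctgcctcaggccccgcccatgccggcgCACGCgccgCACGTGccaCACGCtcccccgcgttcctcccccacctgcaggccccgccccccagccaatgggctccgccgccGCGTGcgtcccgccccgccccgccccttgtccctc
The Egln1 window held 2 cores, 126 and 68 bases before the start, and the Egln3 window held 1, at 229 bases. The Bnip3 window held 5 matches at 4 places, and the matches 107 and 108 bases before the start made up a CACGTG. RefSeq windows were found for 9 of the 10 members, all but Epas1. Vegfa had 2 starts, and 8 of these 10 windows held a core. Of the 32851 windows of all genes 38.6% did, and their median GC content was 52.4%, against 60.8% for the members. The windows without a core were that of Vhl and the upstream one of Vegfa. The Vegfa window with a core (46025164 to 46025413) lies inside the span of the gene given below. So does the Hif1a window (73907617 to 73907866), so these 2 windows lie wholly inside the annotated genes. The windows of Egln1, Bnip3, Vhl and Arnt lie partly inside the spans of their genes. The Egln1 core 68 bases before the RefSeq start falls in the part inside the gene. A match of letters is not a binding site.

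The counts rested on totals between 9228359 and 10483101 per vehicle-treated heart and between 7613011 and 9153997 per caffeine-treated heart, so depth differed between the treatments and 3 counts corresponded to 0.286 to 0.394 CPM, the count of a gene relative to the total of its library. Levels are given as CPM scaled with TMM factors, and differences as log2 fold changes of caffeine over vehicle from the edgeR quasi-likelihood test. Across 13092 tested genes 11 were higher and 3 lower past the thresholds of the study, which asked for more than a 1.5-fold difference and for p under 0.05 after Benjamini-Hochberg adjustment. Scaled by library size only, the numbers were 12 and 15. Ventricular cardiomyocyte markers (Myh6, Tnnt2, Tnni3, Myl2, Ryr2, Pln and Actc1) summed to between 49900 and 59300 CPM, while the atrial markers Myl7 and Sln had 6 and 4 counts over all 6 libraries. In bulk RNA, fewer cells of a type and less RNA per cell cannot be told apart.

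By the quasi-likelihood test of edgeR 0 of the 10 members passed the thresholds, beside 0.107% of all tested genes. The count was also 0 in edgeR's exact and likelihood ratio tests, in DESeq2 and in limma-voom. In 3 members, Epas1, Egln1 and Egln3, every caffeine-treated heart was below every vehicle-treated heart. Over all tested genes 7.13% had hearts separated in that direction. The same 3 members had an unadjusted p below 0.05, as did 8.82% of all tested genes in either direction and 4.4% of them as lower values. No member had all caffeine-treated hearts above the vehicle-treated hearts, a pattern seen in 7.1% of tested genes. The fitted differences of the 10 members ran from -0.61 (Hif3a) to 0.12 (Vhl) on the log2 scale, with a median of -0.061 beside 0.001 for all genes.

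**Figure D1:**
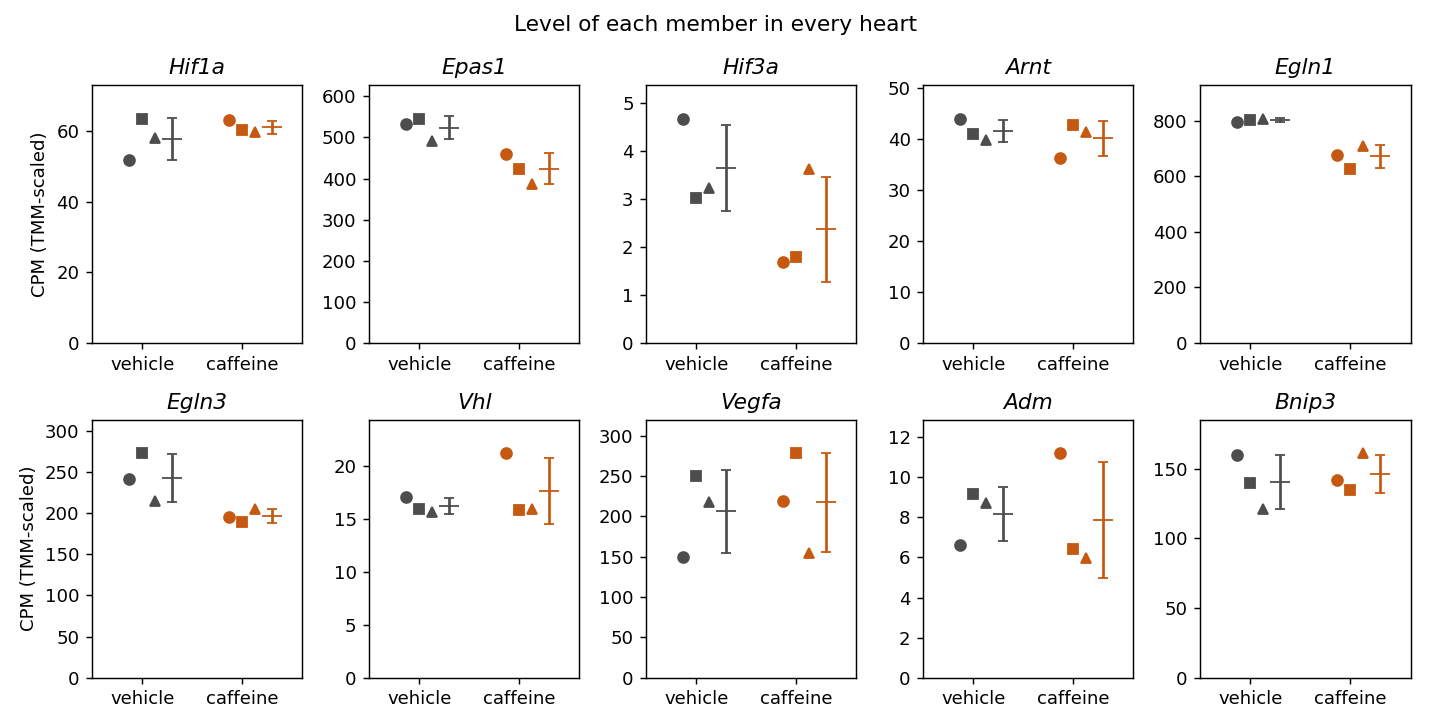
Level of each member in CPM (vertical axes, from 0) in the 3 vehicle-treated (grey) and 3 caffeine-treated (orange) hearts, with circles, squares and triangles for replicates 1 to 3 and a bar for the mean and SD. Epas1, Egln1 and Egln3 have every caffeine-treated heart below every vehicle-treated heart, and the other 7 members overlap.

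Among the alpha subunits, Epas1 (ENSMUSG00000024140, chromosome 17, 86753700 to 86833410) encodes the subunit that is prominent in endothelium. It was at 534, 546 and 492 CPM in the vehicle-treated hearts and at 461, 424 and 386 CPM in the caffeine-treated hearts. The lowest vehicle-treated heart therefore lay above the highest caffeine-treated heart. Epas1 averaged 524 ± 28.3 CPM (SD, n = 3) with vehicle and 423 ± 37.5 CPM (SD, n = 3) with caffeine, a ratio of 0.807 and a log2 fold change of -0.31 (standard error 0.0915, 95% interval -0.51 to -0.11). Its edgeR p was 0.00632 and its adjusted p 0.314, so the difference did not pass the correction over all genes. An exact two-sided permutation test of its log2 CPM gave p = 0.1, the smallest that 3 hearts against 3 allow.

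Hif1a (ENSMUSG00000021109, chromosome 12, 73901375 to 73947530) encodes the alpha subunit found in most cell types. Its values were 51.7, 63.5 and 58.1 CPM with vehicle and 63.0, 60.4 and 59.6 CPM with caffeine. All caffeine-treated hearts lay within the range of the vehicle-treated hearts. The log2 fold change was 0.08 (95% interval -0.14 to 0.29, edgeR adjusted p = 0.885), an interval that excludes a change of 1.5-fold in either direction. Exons of Hif1a share 330 bases with Gm15283, an antisense gene with 43 counts over the 6 libraries, and whether strand was used in counting is not given in the sources used here.

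Hif3a (ENSMUSG00000004328, chromosome 7, 17031507 to 17062427) encodes an alpha subunit with many splice forms, some of which restrain the others. It was the scarcest member, with between 12 and 48 counts per heart. Its values were 4.68, 3.02 and 3.24 CPM with vehicle and 1.68, 1.80 and 3.63 CPM with caffeine. Caffeine replicates 1 and 2 were below all vehicle-treated hearts, while caffeine replicate 3 lay among them. The log2 fold change was -0.61 (standard error 0.339, 95% interval -1.36 to 0.14, edgeR adjusted p = 0.656). It was -1.06 without caffeine replicate 3 and -0.39 without vehicle replicate 1, with adjusted p = 0.533 and 0.822 from edgeR.

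Arnt (ENSMUSG00000015522, chromosome 3, 95434388 to 95497240) encodes the beta subunit. Its values were 44.0, 40.9 and 39.8 CPM with vehicle and 36.3, 42.7 and 41.3 CPM with caffeine. The groups overlapped, with a log2 fold change of -0.05 (95% interval -0.27 to 0.17, edgeR adjusted p = 0.939).

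Per length of merged exons, Epas1 was by far the most abundant alpha subunit transcript, at 93.8 ± 5.07 CPM per kilobase (SD, n = 3) in the vehicle-treated hearts, while Hif1a was at 9.8 ± 1.0 and Hif3a at 0.543 ± 0.135. The ratio of Epas1 to Hif1a per length was taken within each heart, where the scaling between libraries cancels. It was 10.9, 9.08 and 8.93 with vehicle and 7.71, 7.40 and 6.83 with caffeine, so the groups were separate. The ratio of Epas1 to Arnt per length overlapped, at 17.4, 19.1 and 17.7 with vehicle and 18.2, 14.2 and 13.4 with caffeine. Hif1a made up 9.42% ± 0.929 of the summed per-length level of the alpha subunits with vehicle and 12.0% ± 0.63 with caffeine (SD, n = 3 each). Hif3a made up only 0.523% and 0.419% of that sum on average. The share of Hif1a therefore restates the ratio of Epas1 to Hif1a and is no separate result. The ratios were chosen after the values were seen and are given with no test.

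Of the oxygen sensors, Egln1 (ENSMUSG00000031987, chromosome 8, 124908587 to 124949324) encodes the main prolyl hydroxylase for alpha subunits. Its values were 797, 804 and 808 CPM with vehicle, a spread of 0.713% of their mean, and 678, 627 and 710 CPM with caffeine. The vehicle-treated hearts were nearly equal and all stood above the caffeine-treated hearts. A spread taken from 3 hearts is itself uncertain. The means were 803 ± 5.72 and 672 ± 41.9 CPM (SD, n = 3 each), a ratio of 0.837 and a log2 fold change of -0.26 (standard error 0.0819, 95% interval -0.44 to -0.08). The edgeR p was 0.00944 and the adjusted p 0.348, and the exact permutation test gave p = 0.1.

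Egln3 (ENSMUSG00000035105, chromosome 12, 54178981 to 54203860) encodes a related hydroxylase whose gene is itself induced by HIF. It was at 242, 273 and 215 CPM with vehicle and at 196, 189 and 205 CPM with caffeine. The groups did not overlap, but vehicle replicate 3 and caffeine replicate 3 lay close together. The means were 243 ± 29.1 and 197 ± 7.94 CPM (SD, n = 3 each), a ratio of 0.808 and a log2 fold change of -0.31 (standard error 0.0988, 95% interval -0.53 to -0.09). The edgeR p was 0.01 and the adjusted p 0.351, and the exact permutation test gave p = 0.1. Leaving out vehicle replicate 2 moved the log2 fold change to -0.22, with an unadjusted p of 0.0578 from edgeR.

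Egln2, the remaining prolyl hydroxylase of the family and no member, was at 63.1 ± 3.99 CPM with vehicle and 58.2 ± 4.11 CPM with caffeine (SD, n = 3 each), and its hearts overlapped (log2 fold change -0.12, edgeR adjusted p = 0.787). Per length, Egln1 made up 66.3% ± 2.15 of the summed level of Egln1, Egln2 and Egln3 with vehicle and 66.4% ± 0.492 with caffeine (SD, n = 3 each). Egln3 made up 27.0% ± 2.44 and 26.2% ± 0.483. Egln2 made up 6.69% ± 0.519 and 7.39% ± 0.374, and the hearts of the treatments overlapped in all 3 shares.

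Vhl (ENSMUSG00000033933, chromosome 6, 113623959 to 113631633), the subunit that recognises hydroxylated alpha subunits, was at 17.1, 15.9 and 15.7 CPM with vehicle. With caffeine it was at 21.2, 15.8 and 15.9 CPM, of which only replicate 1 was above the vehicle range. The log2 fold change was 0.12 (95% interval -0.20 to 0.44, edgeR adjusted p = 0.882), and -0.03 without caffeine replicate 1. Its pseudogene Vhl-ps1 had 0 counts.

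**Figure D2:**
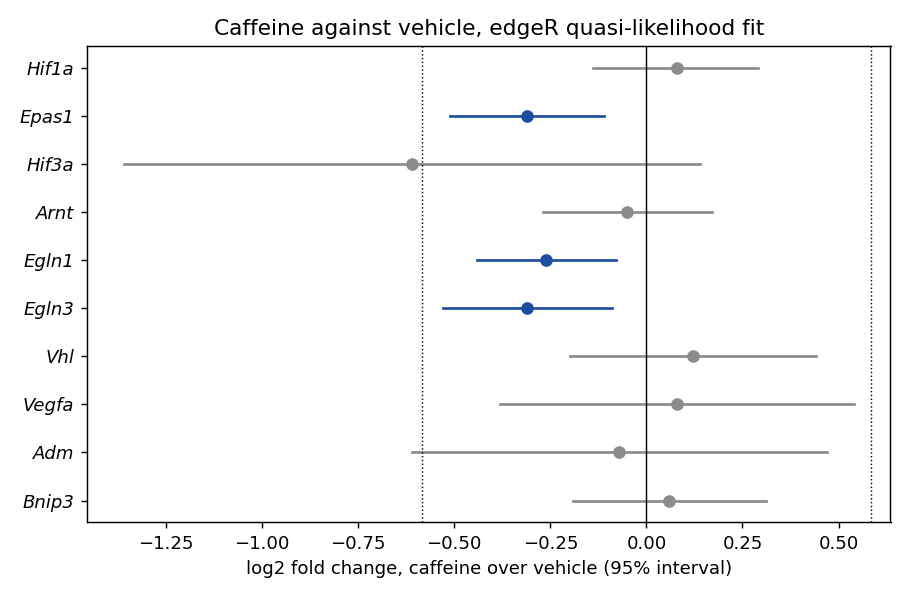
Log2 fold change of caffeine over vehicle (horizontal axis) with its 95% interval for each member, in blue where the hearts of the treatments do not overlap. The dotted lines mark a fold change of 1.5, which Epas1 (-0.31), Egln1 (-0.26) and Egln3 (-0.31) do not reach.

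Among the targets, Vegfa (ENSMUSG00000023951, chromosome 17, 46016993 to 46032369) encodes the main growth factor for endothelium. Its values were 150, 250 and 218 CPM with vehicle and 219, 278 and 155 CPM with caffeine. Both treatments held a heart near 150 CPM and hearts at 218 CPM or more, and the highest heart was 1.86 times the lowest. The log2 fold change was 0.08 (95% interval -0.38 to 0.54, edgeR adjusted p = 0.954). Leaving out vehicle replicate 1 or caffeine replicate 2 turned it to -0.10 or -0.14, and leaving out caffeine replicate 3 raised it to 0.28.

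Adm (ENSMUSG00000030790, chromosome 7, 110627661 to 110629820) encodes adrenomedullin, a vasodilator peptide. It was at 6.63, 9.16 and 8.70 CPM with vehicle and at 11.2, 6.42 and 5.97 CPM with caffeine. The caffeine-treated hearts included both the highest and the lowest values. The log2 fold change was -0.07 (95% interval -0.61 to 0.47, edgeR adjusted p = 0.965) and was -0.40 without caffeine replicate 1, where its adjusted p was 0.742.

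Bnip3 (ENSMUSG00000078566, chromosome 7, 138890836 to 138909519) encodes a mitophagy receptor. Its values were 160, 140 and 121 CPM with vehicle and 142, 135 and 161 CPM with caffeine, and the groups overlapped throughout. The log2 fold change was 0.06 (95% interval -0.19 to 0.31, edgeR adjusted p = 0.936). Hif1a, Vegfa and Bnip3 changed sign when the counts were scaled by library size only, to -0.01, -0.02 and -0.02.

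In the order of levels per length in the vehicle-treated hearts, Egln1 came first at 223 ± 1.59 CPM per kilobase (SD, n = 3). Epas1 (93.8 ± 5.07) and Egln3 (91.4 ± 10.9) followed and differed by less than their spread. Bnip3 (62.0 ± 8.53) and Vegfa (48.0 ± 11.9) came next, also within overlapping spreads. Hif1a (9.8 ± 1.0) stood apart from Vhl (5.41 ± 0.253), Arnt (5.19 ± 0.270) and Adm (5.04 ± 0.831), which differed by less than their spread, and Hif3a was last at 0.543 ± 0.135. In the caffeine-treated hearts the order was the same, with Egln1 at 187 ± 11.7, Epas1 at 75.7 ± 6.70 and Egln3 at 73.9 ± 2.98.

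The cell types of the heart were checked through marker lists, by summed CPM. The endothelial list (Pecam1, Cdh5, Tie1, Tek, Emcn, Vwf and Egfl7) summed to between 621 and 647 CPM with vehicle and between 612 and 687 CPM with caffeine. Of its 7 genes 0 had separate hearts, beside 7.13% of all tested genes as lower and 7.1% as higher values. Epas1 stood at 86.1%, 85.7% and 76.1% of the endothelial sum with vehicle and at 72.0%, 61.7% and 63.0% with caffeine, with no overlap. The log2 fold changes of the 7 endothelial markers ran from -0.24 (Emcn) to 0.15 (Egfl7), with 4 above 0 and 3 below. Flt1 and Kdr, receptors for Vegfa outside this list, had log2 fold changes of -0.27 and -0.19 (edgeR unadjusted p = 0.023 and 0.083). Hearts were separate in Flt1 and overlapped in Kdr. Whether endothelial RNA as a whole differed was not tested. The ventricular cardiomyocyte list summed to between 50600 and 59300 CPM with vehicle and between 49900 and 54000 CPM with caffeine. Relative to it, Egln3 stood at 0.407%, 0.519% and 0.425% with vehicle and at 0.393%, 0.350% and 0.397% with caffeine, which did not overlap. Egln1 did overlap on that scale, at 1.34%, 1.53% and 1.6% against 1.36%, 1.16% and 1.38%, as did Epas1 at 0.900%, 1.04% and 0.973% against 0.923%, 0.786% and 0.749%.

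**Figure D3:**
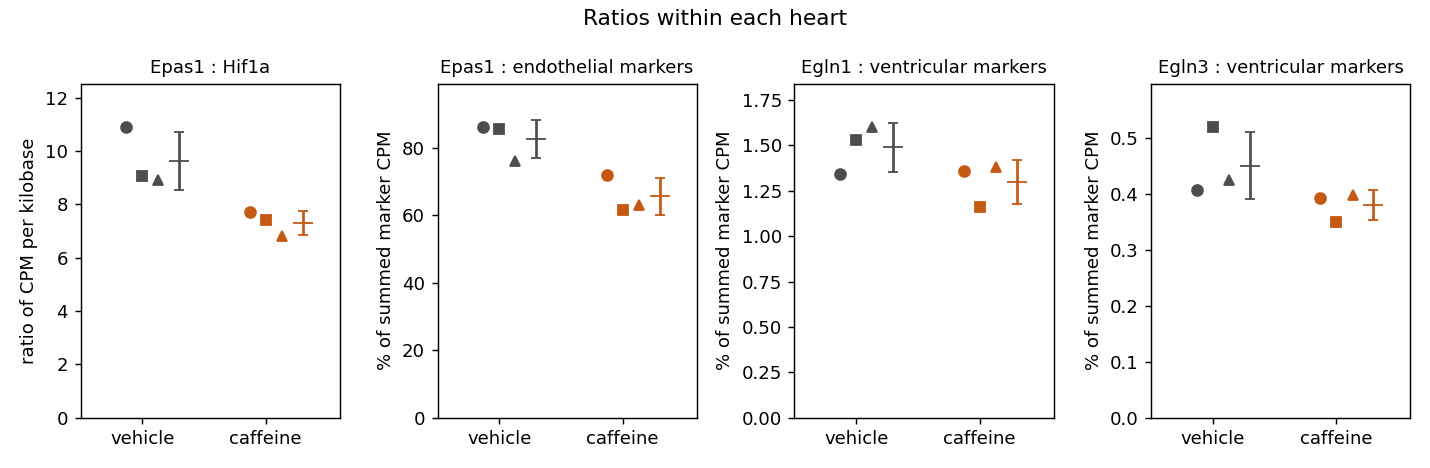
Ratios taken within each of the 3 vehicle-treated (grey) and 3 caffeine-treated (orange) hearts, with the mean and SD: Epas1 to Hif1a per length, and Epas1, Egln1 and Egln3 as a percentage of summed marker CPM, on axes from 0. The treatments are separate for Epas1 to Hif1a, Epas1 to endothelial markers and Egln3 to ventricular markers, and overlap for Egln1, where vehicle replicate 1 is at 1.34% and caffeine replicate 3 at 1.38%.

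The sums of other lists are given with no test. Fibroblast markers (Col1a1, Col1a2, Col3a1, Pdgfra, Dcn and Tcf21) summed to between 758 and 914 CPM with vehicle and between 998 and 1140 CPM with caffeine, and Col3a1 and Dcn were higher in every caffeine-treated heart. All 6 fibroblast markers had fitted values above 0, but 0 were past the thresholds. An unadjusted edgeR p below 0.05 was found in 3 of them, beside 8.82% of all tested genes. Over all tested genes 7.1% were higher in every caffeine-treated heart. The atrial list was higher through Nppa (53.3 to 181 against 267 to 434 CPM). The skeletal muscle list was higher through Acta1 (2780 to 3550 against 4510 to 5040 CPM). Acta1 passed the thresholds (log2 fold change 1.53, edgeR adjusted p = 0.00296), while Ckm overlapped (log2 fold change -0.06). Tnni2, with 22 counts over all libraries, was lower in every caffeine-treated heart, and Tnnt3, Myh1 and Myh4 had 6 counts or fewer. The macrophage (44.3 to 71.2 against 59.3 to 88.9 CPM), mural (1100 to 1210 against 1080 to 1260 CPM) and erythroid (711 to 1330 against 768 to 1620 CPM) sums overlapped. All 5 macrophage markers had fitted values above 0, with a median log2 fold change of 0.338, but 0 were past the thresholds. An unadjusted edgeR p below 0.05 was found in 2 of them. Of the macrophage markers, Csf1r and Adgre1 were higher in every caffeine-treated heart, beside the same 7.1% of all tested genes. Lymphocyte markers were higher (0.585 to 0.708 against 0.978 to 1.13 CPM) and adipocyte markers lower (0.607 to 1.85 against 0.113 to 0.468 CPM) with caffeine, and each of these genes had 25 counts or fewer over all 6 libraries. The part of these differences in the levels of Epas1, Egln1 and Egln3 was not tested.

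Beyond the members, 72 further genes of the pathway were listed by role, and 67 were tested. By the quasi-likelihood test of edgeR, DESeq2 and limma-voom 0 passed the thresholds, and Stc2 alone did in edgeR's exact and likelihood ratio tests. In 7 genes every caffeine-treated heart was lower and in 4 every one was higher, and 7 of the 67 had an unadjusted p below 0.05. Over all tested genes the corresponding shares were the 7.13%, 7.1% and 8.82% given for the members. The median log2 fold change was 0.027. Arnt2, Epo, Aldoc, Car9 and Car12 were below the filter, and Epo, the kidney hormone for red cell production, had 0 counts.

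In the list on oxygen sensing and degradation 10 further genes were tested, with a median log2 fold change of -0.013. Os9, a lectin reported to help the hydroxylases, was at 39.6 ± 1.96 CPM with vehicle and 33.4 ± 3.72 CPM with caffeine (SD, n = 3 each), a log2 fold change of -0.25 (edgeR adjusted p = 0.557). Siah1a, a ubiquitin ligase that targets hydroxylases, was at 14.7 ± 1.28 and 12.7 ± 0.781 CPM (log2 fold change -0.21, edgeR adjusted p = 0.706). Hearts did not overlap in either gene, although the closest Siah1a values both rounded to 13.2 CPM, and neither gene passed the test. Hif1an, the asparaginyl hydroxylase that blocks the transactivation of alpha subunits, overlapped at 135 ± 13.7 and 124 ± 8.19 CPM. The 8 coactivators and modulators, Ep300 and Crebbp among them, had a median of 0.004, and 0 of them had separate hearts or an unadjusted p below 0.05.

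Among 9 further vascular and iron genes, Flt1, a receptor for Vegfa, was lower in every caffeine-treated heart. It was at 196 ± 7.43 CPM with vehicle and 163 ± 20.6 CPM with caffeine (SD, n = 3 each), a log2 fold change of -0.27 (95% interval -0.49 to -0.04, edgeR adjusted p = 0.446). The 9 genes had a median of 0.01, and 0 were past the thresholds.

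The 16 tested glycolytic targets divided evenly, with 8 fitted values above 0 and 8 below and a median of 0.007. Slc16a3, a lactate exporter, was at 4.44 ± 0.583 and 5.65 ± 0.380 CPM (SD, n = 3 each), Eno1 at 14.8 ± 0.732 and 18.2 ± 0.671 CPM, and Tpi1 at 525 ± 29.8 and 595 ± 4.6 CPM. The caffeine-treated hearts were all higher in these 3 genes, with log2 fold changes of 0.34, 0.29 and 0.18 and edgeR adjusted p = 0.675, 0.512 and 0.561. Gpi1 and Pdk1 were lower in every caffeine-treated heart, by log2 fold changes of -0.12 and -0.11 (edgeR adjusted p = 0.741 and 0.774). The largest difference of the list was in Pgam1, at -0.44 (edgeR adjusted p = 0.652). Its hearts overlapped, at 5.77 ± 1.24 CPM with vehicle and 4.23 ± 0.924 CPM with caffeine (SD, n = 3 each). Gapdh averaged only 3.17 CPM and Eno1 14.8 CPM with vehicle, beside 525 CPM for Tpi1. The values of Gapdh, like those of other glycolytic genes with many near-identical copies, are uncertain. Whether Eno1 lost reads in this way was not tested. Both genes are among the 16 tested targets, so the median of 0.007 includes them.

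Of 10 further genes for mitophagy, growth arrest and mitochondria, Ak4, a mitochondrial adenylate kinase, was lower in every caffeine-treated heart, at 62.9 ± 3.58 CPM with vehicle and 56.6 ± 1.46 CPM with caffeine (SD, n = 3 each, log2 fold change -0.15, edgeR adjusted p = 0.673). Bnip3l, a mitophagy receptor related to Bnip3, had the only unadjusted p below 0.05 of the list, with overlapping hearts at 45.9 ± 1.54 and 54.5 ± 6.49 CPM (SD, n = 3 each). Its log2 fold change was 0.24 (95% interval 0.01 to 0.48, edgeR adjusted p = 0.552). The list had a median of 0.011.

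The matrix, pH and chromatin list held the largest differences, in opposite directions, and its 14 tested genes had a median of 0.109. Stc2, a secreted glycoprotein, was at 20.9, 17.1 and 15.3 CPM with vehicle and at 11, 10.8 and 12.2 CPM with caffeine. All caffeine-treated hearts were lower, with a log2 fold change of -0.64 (95% interval -0.98 to -0.31) and edgeR adjusted p = 0.189 in the quasi-likelihood test. The adjusted p was 0.0349 in edgeR's exact test, 0.0305 in its likelihood ratio test and 0.0041 with no filter on low counts. P4ha1, a prolyl hydroxylase that acts on collagen, was at 77.5, 74.0 and 83.2 CPM with vehicle and at 89.9, 127 and 100 CPM with caffeine. All caffeine-treated hearts were higher, with a log2 fold change of 0.43 (95% interval 0.16 to 0.71, edgeR adjusted p = 0.287). The fibroblast markers above were higher in the same hearts, and their part in the P4ha1 level was not tested.

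**Figure D4:**
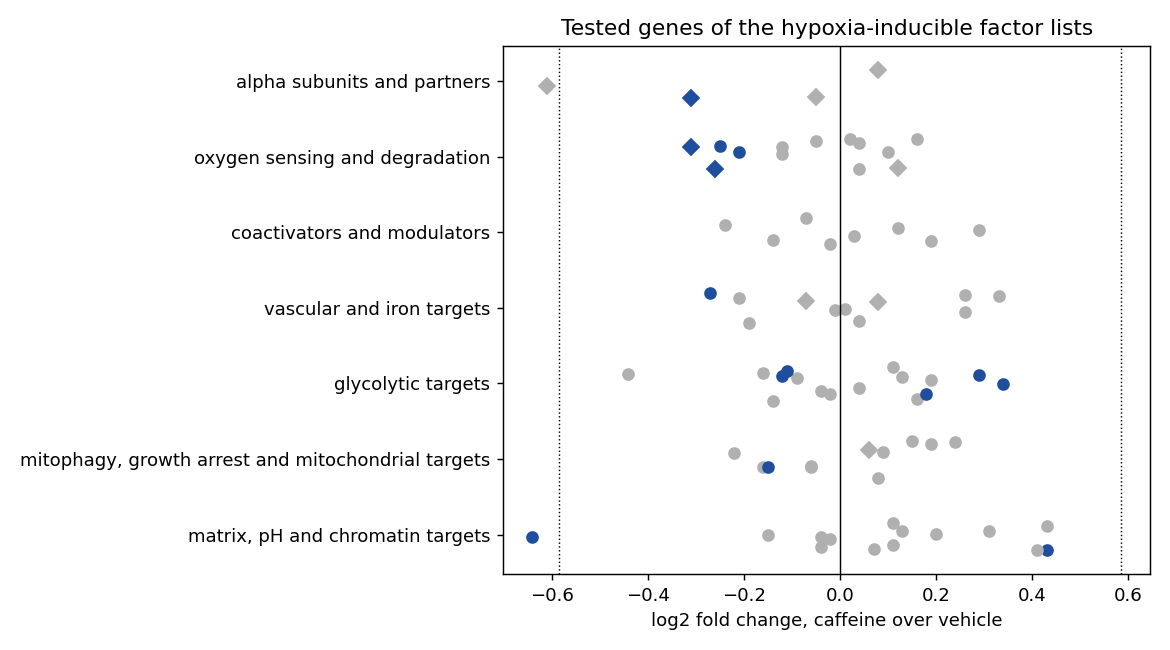
Log2 fold change of caffeine over vehicle (horizontal axis) for every tested gene of the pathway lists (rows), with diamonds for members, circles for other genes and blue for genes whose hearts do not overlap between the treatments. Points scatter on both sides of 0 within each list, and only Hif3a (-0.61) and Stc2 (-0.64) lie beyond the dotted lines at a fold change of 1.5.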

How the data were processed

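Poly(A) RNA of 6 left ventricles was sequenced by the authors with single-end reads in 1 run. FastQC was used by the authors for cleaning, TopHat2 for mapping to mm10 (GRCm38) and HTSeq for counting reads in genes of Ensembl release 79. The deposited raw counts cover 43629 genes, were neither normalized nor pooled, and hold no entry for unassigned reads. Tool versions are not given in the sources used here. Reads that match near-identical genes may be lost or split in such counts.

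Genes were filtered with filterByExpr of edgeR (minimum count 10, minimum total 15), which left 13092, scaled with TMM and tested for treatment alone with glmQLFit and glmQLFTest. Intervals cover 95%. The common dispersion of 0.0145 corresponds to a coefficient of variation of 12.1%. Symbols, positions and merged exon lengths came from GENCODE release 21 of the mouse series, GRCm38, matched by Ensembl identifier (1167 had none), and promoter windows from RefSeq. The exact permutation test used all 20 labelings. Replicates of a treatment differed by more than sampling noise (chi-square per degree of freedom 5.37 to 14.01). The scripts were tested on simulated data.

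The members, lists and tests were chosen with earlier results of these data known. Beyond the members, a rule named up to 3 genes in each pathway list. They had the largest absolute log2 fold changes among those whose hearts did not overlap. Cell type markers and genes below the filter were named apart from this rule. Ep300 and Crebbp were named as examples of their list. Edn1, Angpt2, Tfrc and Pdgfb were named because they fitted the pattern of low hearts under other observations. Egln2, Hif1an, Kdr, Gapdh, Gpi1, Pdk1, Pgam1 and Bnip3l were added after their values were seen. Alternatives were edgeR's exact and likelihood ratio tests, DESeq2, limma-voom, other scalings and filters, no fold change threshold, the replicate number as a block and each heart left out. Versions were R 4.3.3, edgeR 4.0.16, limma 3.58.1, DESeq2 1.42.0, Matplotlib 3.10.9, SciPy 1.17.1, NumPy 2.4.6, pandas 2.3.3 and Python 3.11.15.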

Additional observations from a re-analysis of the deposited data

How the results depend on the processing

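No member was past the thresholds under any of the 16 alternatives. Epas1, Egln1 and Egln3 stayed lower in all 15 refits of their fold changes, with log2 values of -0.40 to -0.24, -0.34 to -0.21 and -0.39 to -0.22. Their adjusted p-values ran from 0.0577, 0.149 and 0.0739 to 0.68, 0.636 and 0.723. Scaling by library size only moved the median of all genes by -0.0843 and gave -0.011 for Hif1a, -0.018 for Vegfa and -0.021 for Bnip3. Leaving out 1 heart at a time gave -0.137 to 0.277 for Vegfa, -0.397 to 0.094 for Adm, -0.039 to 0.16 for Bnip3, -0.097 to 0.015 for Arnt and -0.032 to 0.191 for Vhl. The other members kept their sign in those fits.

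Genes higher and lower past the thresholds numbered 11 and 3. They were 61 and 33 in edgeR's exact test, 63 and 38 in its likelihood ratio test, 39 and 28 in DESeq2 and 145 and 95 with no filter on low counts. With library size only 15 were lower, and without 1 heart 4 to 17 were higher and 0 to 13 lower. The other genes of the pathway lists past the thresholds numbered 1 (Stc2) in the exact test, the likelihood ratio test and with no filter. The cause was not tested. With the replicate block the numbers were 29 and 11. Same-numbered hearts correlated in their deviations from group means by 0.045, -0.03 and -0.038. The highest correlation was 0.12, between vehicle replicate 3 and caffeine replicate 2. The labels do not say whether same-numbered hearts were paired. These correlations cannot decide it, because each rests on deviations from the mean of only 3 hearts. Hif3a and Adm, with at most 48 and 97 counts per heart, have intervals that reach beyond a change of 1.5-fold.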

Other observations

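Vegfa and Adm varied more between hearts of the same treatment than between the treatments. The lowest Vegfa level of the vehicle-treated hearts was in replicate 1 (150 CPM) and that of the caffeine-treated hearts in replicate 3 (155 CPM). These 2 hearts were picked by their Vegfa level, so Vegfa and Adm are left out of the following count. They were the lowest of their treatment in 5 of the 9 other tested vascular and iron targets (55.6%), namely Edn1, Angpt2, Flt1, Tfrc and Pdgfb, against 11.6% of all 13092 tested genes. They were also the lowest in all 4 tested erythroid markers, Hba-a1, Hbb-bt, Hbb-bs and Alas2, whose list summed to 711 and 768 CPM in these hearts and to between 1190 and 1620 CPM in the other 4. Flt1 fitted by a narrow margin, with vehicle replicate 1 at 191 CPM and vehicle replicate 2 at 192 CPM. Of the other members, only Hif1a showed the pattern. The pattern held for 1 of 16 glycolytic targets, 1 of 13 genes for oxygen sensing and degradation, 2 of 8 coactivators, 3 of 14 matrix, pH and chromatin targets and 1 of 7 endothelial markers. It also held for 1 of 11 genes for mitophagy, growth arrest and mitochondria, 1 of 6 fibroblast markers and 1 of 6 mural markers. It held for 0 of 7 ventricular and 0 of 5 macrophage markers. It was noticed in the values and has no test, and the part of blood left in the tissue was not tested.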
